A study of Homo sapiens with 12 samples.

Results

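Most genes listed for hypoxia and glycolysis and for sterol synthesis stood lower in KMS11 cells given an STK17B inhibitor than in KMS11 cells in which STK17B was silenced with hairpins, while most genes listed for ribosome assembly and DNA replication stood higher. KMS11 is an established human multiple myeloma line, grown from malignant plasma cells. RNA sequencing gave 2 libraries of cells labelled WT and given the STK17B inhibitor, against 2 libraries with the hairpin sh1 and 2 with the hairpin sh2, both labelled STK17B shRNA and untreated. No control library enters the comparison, so a lower value with the inhibitor and a higher value with the hairpins cannot be told apart. The genes compared were those with at least 1 TPM (a transcript abundance corrected for length, with the same sum in every library) in at least 2 of the 12 libraries of the study, 12731 of 29607 genes. The labels name neither the compound nor its dose or time, and the study's design text says that the treated cells carried a control hairpin. That text also speaks of vehicle, but no group is labelled so. Inhibitor libraries and hairpin libraries therefore differ in the STK17B target, in the compound, in its solvent, in the hairpin sequence and in how long the cells were altered, and these cannot be told apart.

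STK17B, also called DRAK2, phosphorylates serine and threonine residues and is a relative of the death-associated protein kinases. A hairpin lowers the transcript and through it the protein, whereas a kinase inhibitor blocks catalysis and leaves the protein in place. No protein was measured here. The study's title ties the kinase to ferroptosis, a cell death in which iron drives the peroxidation of membrane lipids and which the selenoenzyme GPX4 holds back. In the hypoxia pathway, oxygen-dependent hydroxylases mark the alpha subunits of HIF for destruction, and HIF that escapes this switches on glucose transporters, glycolytic enzymes, VEGFA and the microRNA miR-210. In the sterol pathway, the SREBP factors are released from the endoplasmic reticulum when sterols run low and switch on cholesterol and fatty acid enzymes.

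The libraries of a group lay closer to each other than the inhibitor lay to the hairpins. The median absolute log2 difference over the tested genes was 0.0787 between the inhibitor replicates, against 0.0912 between those of sh1 and 0.0632 between those of sh2. Between an inhibitor and a hairpin library it was 0.197 to 0.251, against 0.0917 to 0.112 between an sh1 and an sh2 library. The depth is unknown, since TPM keeps no count. The 20 most abundant genes held 14.96% and 15.05% of all TPM in the inhibitor libraries, against 16.7% to 17.71% in the hairpin libraries. Most markers of other cell types were below the filter: 2 of 13 T and NK cell markers, 2 of 12 myeloid, 1 of 12 stromal and endothelial and 1 of 8 erythroid markers were tested. The myeloid list summed to 1.754 and 2.19 TPM with the inhibitor, against 1.499 to 1.816 TPM with the hairpins. The T and NK list summed to 225.9 and 240.7 TPM with the inhibitor and 219.9 to 259.3 TPM with the hairpins, nearly all of it CD7, while CD3D, CD3G, CD2 and CD8A were below the filter. Whether these levels move with any difference was not tested. The labels do not say whether replicates were grown apart, so the p-values measure the spread between these libraries, which may be technical.

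On the log2(TPM + 1) scale, which makes differences of low genes look smaller, limma called 3600 genes higher with the inhibitor than with the mean of the hairpins (28.3%) and 2514 lower (19.7%), at a Benjamini-Hochberg adjusted p below 0.05. The differences were mostly small. Their median over all tested genes was 0.04, and their median size was 0.20, against 0.08 for the difference between sh2 and sh1. Only 33 genes were called higher by an estimated 2-fold or more (0.259%), and 120 were called lower by as much (0.943%). Both inhibitor libraries lay above all 4 hairpin libraries for 4459 genes (35.0%) and below all of them for 3297 genes (25.9%). At the other end, the 95% interval of the difference lay within 0.32 of 0 for 4682 genes (36.8%), a window referred to here as the narrow window. The shares of calls in the gene lists below are to be read against these backgrounds.

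**Figure D1:**
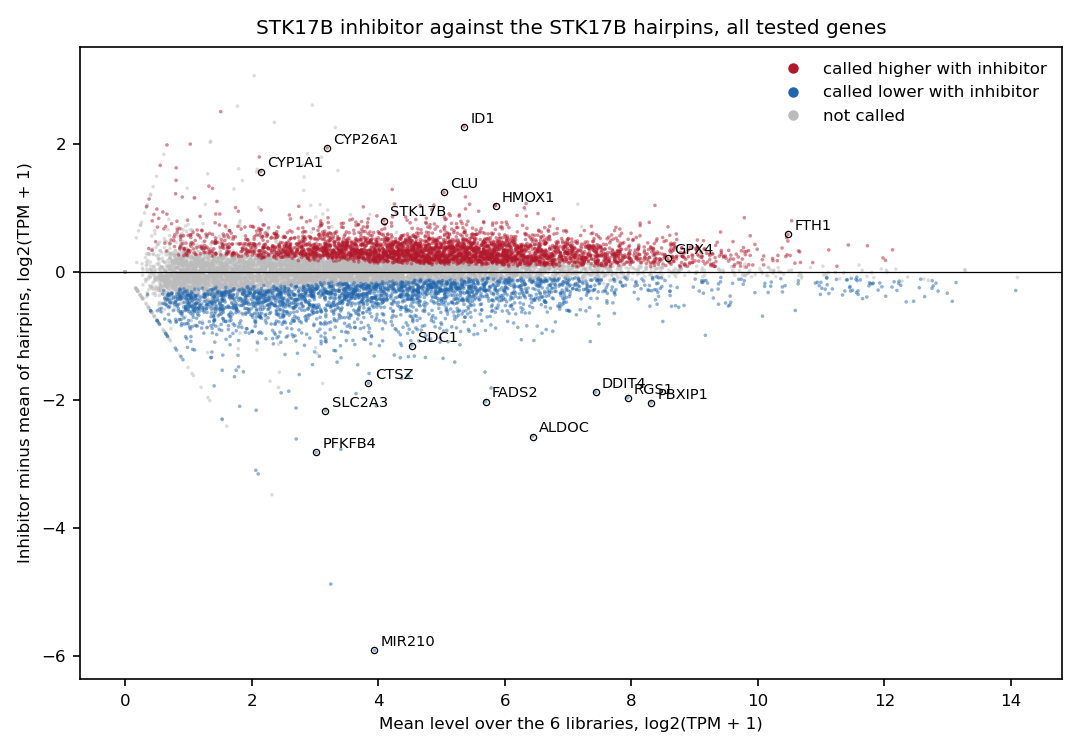
Difference (inhibitor minus the mean of sh1 and sh2) against mean level, both in log2(TPM + 1), for the 12731 tested genes; red and blue points were called higher and lower, grey points were not called. The 33 higher and 120 lower calls of 2-fold or more lie at the edges, and MIR210, listed at 0 in both inhibitor libraries, has a position that depends on the pseudocount.

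The largest differences among protein-coding genes of at least 5 TPM, taken from those without overlap between the groups, included both signalling and metabolic genes. ID1, an inhibitor of basic helix-loop-helix transcription factors (chromosome 20, GRCh38 31605283 to 31606515, plus strand), had 116.2 and 115.6 TPM with the inhibitor, against 23.18 and 23.31 TPM with sh1 and 23.97 and 22.6 TPM with sh2. That is a difference of 2.27 (SE 0.04, adjusted p = 5.5e-06), with the groups far apart and the 4 hairpin libraries close together. Its relative ID3 was also higher (0.84, SE 0.05), while ID2 had an interval inside the narrow window, at 104.9 and 94.44 TPM with the inhibitor and 93.2 to 98.42 TPM with the hairpins. CYP26A1, an enzyme that breaks down retinoic acid, had 21.06 and 21.74 TPM with the inhibitor, against 4.434 and 4.759 TPM with sh1 and 4.916 and 5.325 TPM with sh2 (1.94, SE 0.06). CYP1A1, the classical target of the aryl hydrocarbon receptor, had 7.678 and 8.581 TPM with the inhibitor, against 2.375 and 2.312 TPM with sh1 and 1.704 and 1.965 TPM with sh2 (1.57, SE 0.08). The receptor's own repressor AHRR was higher too (0.56). Of the 6 tested members of the receptor's list 3 were higher and 1 lower, beside 28.3% and 19.7% of all tested genes. The list median was 0.37, and so few members do not set the list apart from all genes. Other genes on this side were CLU, an extracellular chaperone (1.24), CAPN2, a calcium-dependent protease (1.06), PEG10 (1.05), DCK, which phosphorylates deoxycytidine (1.04), AMPD1, a muscle-type AMP deaminase (1.03), THUMPD1 (1.02) and HDGFRP3 (1.17). In bulk RNA, a change in the share of cells with a transcript and a change per cell cannot be told apart.

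On the lower side, the genes outside the hypoxia group included PBXIP1, RGS1 and CHRNA1. PBXIP1, which binds PBX homeodomain proteins, had 122.4 and 123 TPM with the inhibitor, against 567.3 and 558.5 TPM with sh1 and 462.9 and 458 TPM with sh2 (-2.04, SE 0.02, adjusted p = 1.9e-06). RGS1, which shuts off G protein signals of chemokine receptors, had 105.9 and 91.14 TPM with the inhibitor, against 390 and 390.5 TPM with sh1 and 382.4 and 383.1 TPM with sh2 (-1.97, SE 0.06). CHRNA1, a subunit of the muscle acetylcholine receptor, was lower by the same measure (-1.86). These genes were picked among those with all 4 hairpin libraries above both inhibitor libraries, so that separation follows from the choice. It held for 25.9% of all tested genes. Some short RNA genes were listed at 0 in both inhibitor libraries and so have no fold: RNU6-2 stood at 20.95 to 64.32 TPM and SNORA48 at 5.447 to 11.28 TPM in the hairpin libraries. RNA without a poly(A) tail is poorly kept by oligo-dT selection, and small RNA genes share sequence with other loci, so these listings are uncertain. The same holds for SNORA33 on the higher side, with 30.05 and 35.9 TPM with the inhibitor and 11.26 to 17.1 TPM with the hairpins, and the calls of SNORA33 and SNORA48 were lost in the fit of all 12 libraries.

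STK17B itself (chromosome 2, 196133566 to 196176503, minus strand) had 24.95 and 22.41 TPM with the inhibitor, against 12.73 and 10.95 TPM with sh1 and 14.72 and 14.52 TPM with sh2. The difference was 0.80 (SE 0.08, adjusted p = 0.00069), a ratio of 1.74 with no overlap between groups. It is 0.94 against sh1 and 0.66 against sh2, and sh2 and sh1 did not pass the test between them (0.29, adjusted p = 0.24). The hairpin libraries thus carried less of the target's transcript than the inhibitor libraries, as their labels say. STK17A, its closest paralog (chromosome 7, 43582758 to 43650713, plus strand), had 41.77 and 39.53 TPM with the inhibitor, against 50.51 and 51.16 TPM with sh1 and 51.13 and 47.57 TPM with sh2 (-0.29, SE 0.04, adjusted p = 0.0033). Of the other death-associated kinases, DAPK1 and DAPK3 had intervals inside the narrow window and DAPK2 was below the filter.

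Genes of hypoxia and glycolysis formed the list with the lowest median of the 43 lists. Of its 40 genes 39 were tested, and 37 were lower with the inhibitor and 0 higher, beside 19.7% and 28.3% of all tested genes. Their median difference was -0.72, beside 0.04 over all tested genes, and 14 of the 39 were lower by 2-fold or more. After quantile normalization 35 were lower and 1 higher. PFKFB4, a bifunctional enzyme that sets the level of a glycolytic activator, had 1.047 and 1.372 TPM with the inhibitor, against 15.54 and 14.17 TPM with sh1 and 14.02 and 14.51 TPM with sh2 (-2.82, SE 0.08, adjusted p = 6.4e-05). ALDOC, an aldolase, had 26.03 and 25 TPM with the inhibitor, against 165.9 and 163.6 TPM with sh1 and 149.6 and 148.1 TPM with sh2 (-2.57, SE 0.03, adjusted p = 1.9e-06). SLC2A3, the glucose transporter GLUT3, had 2.405 and 2.194 TPM with the inhibitor, against 14.68 and 13.84 TPM with sh1 and 13.79 and 13.02 TPM with sh2 (-2.17). In all 3 genes the hairpins stood together at several times the inhibitor's level.

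The lower members span the roles of the pathway. The lactate exporter SLC16A3 differed by -1.90, and the mitophagy receptors BNIP3 and BNIP3L by -1.81 and -1.63. BNIP3 had 22.26 and 23.4 TPM with the inhibitor, against 79.47 and 80.03 TPM with sh1 and 84.87 and 86.56 TPM with sh2. Of secreted and surface products, VEGFA, which drives vessel growth, differed by -1.09, the hormone precursor ADM by -0.72 and the carbonic anhydrase CA9 by -1.22, the last at only 0.1115 and 0.3349 TPM with the inhibitor and 1.769 to 1.877 TPM with the hairpins. Enzymes of the main glycolytic path, which every cell carries at high level, differed less: PGK1 by -0.53, LDHA by -0.52, ALDOA by -0.27, GAPDH by -0.18, ENO1 by -0.12 and PKM by -0.10. Of the steps that feed or leave glycolysis, PDK1, which holds pyruvate back from the mitochondrion, differed by -0.88 and SLC2A1, the glucose transporter GLUT1, by -0.51. PFKL (-0.13) and PDK3 (-0.19) were the 2 tested members that did not pass.

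DDIT4, an mTORC1 inhibitor that both hypoxia and the ATF4 pathway control, is listed with the ATF4 targets here. It had 72.28 and 71.27 TPM with the inhibitor, against 270.4 and 262.3 TPM with sh1 and 266 and 266.6 TPM with sh2 (-1.88, SE 0.03, adjusted p = 3.3e-06), and was equally far from each hairpin. MIR210HG, the host transcript of miR-210, had 0.8182 and 1.095 TPM with the inhibitor, against 10.42 and 11.2 TPM with sh1 and 11.18 and 10.85 TPM with sh2 (-2.61, SE 0.08). The MIR210 gene on the same strand (chromosome 11, 568089 to 568198, minus strand) stood at 0 with the inhibitor in either library, whereas sh1 gave 138.7 and 60.29 TPM and sh2 gave 30.75 and 47.27 TPM. A value per length magnifies such a short gene, and these libraries do not measure the mature microRNA. Its mature 3p sequence is shown because it names the family of targets, with the seed, bases 2 to 8, in capitals (RefSeq, GRCh38.p14, chr11:568112-568133, minus strand).
hsa-miR-210-3p: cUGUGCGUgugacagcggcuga

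The regulators of HIF showed smaller differences than the hypoxia list. Of 11 tested subunits and regulators 6 were lower and 3 higher, beside 19.7% and 28.3% of all tested genes, with a median of -0.12. EGLN1, the main prolyl hydroxylase that marks HIF and itself a HIF target, had 25.05 and 23.41 TPM with the inhibitor and 38.2 to 39.77 TPM with the hairpins (-0.66, SE 0.04). CITED2, which competes with HIF for its coactivators, was lower (-0.29), and the coactivator CREBBP was higher (0.38). HIF1A had 23.66 and 22.56 TPM with the inhibitor, against 31.67 and 26.17 TPM with sh1 and 29.5 and 30.47 TPM with sh2 (-0.33, adjusted p = 0.016), a call lost on leaving out any 1 library of the inhibitor or of sh2. VHL, which recognises hydroxylated HIF, and the asparaginyl hydroxylase HIF1AN had intervals inside the narrow window. EPAS1, HIF3A, ARNT2 and EGLN3 were below the filter.

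Enzymes that use oxygen on other substrates were lower in part, beside 19.7% lower and 28.3% higher of all tested genes. Among them P4HA1, P4HA2 and KDM3A are also in the hypoxia list and were already counted there. Of 9 tested collagen prolyl and lysyl hydroxylases and partners 6 were lower and 1 higher (median -0.33). P4HA1 had 8.798 and 8.378 TPM with the inhibitor, against 29.85 and 26.88 TPM with sh1 and 31.5 and 29.64 TPM with sh2 (-1.67), and P4HA2 differed by -1.89, PLOD1 by -0.38 and PLOD3 by -0.31. The 1 higher member, P4HB, which is also a general disulphide isomerase, differed by 0.09 and reversed to -0.0044 after quantile normalization. Of 20 oxygen-dependent histone demethylases and TET enzymes 8 were lower and 3 higher (median -0.15). KDM3A, an eraser of H3K9 methylation, had 17.64 and 15.32 TPM with the inhibitor and 42.07 to 44.44 TPM with the hairpins (-1.35), and KDM5B (-1.01), KDM4B (-0.58) and KDM6B (-0.56) were lower too. MINA was higher (0.38), while the other higher members, PHF8 and C14orf169, lost the call in several alternatives that left out a library.

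The letters of the promoters were read for the core of the hypoxia response element, ACGTG, searched on both strands in the 250 bases before and 50 after each gene's start (RefSeq, GRCh38.p14). Of the 39 tested members 35 had an entry, and 19 of them held it (54.3%), against 5900 of all 27305 promoters (21.6%). The 27305 promoters include those of genes that were not tested. A share of 53.6% (15 of 28) was found among the genes of MYC and ribosome biogenesis, which stood higher, and ACGTG is also part of the E-box CACGTG that MYC reads. Other lists ranged widely, as with 45.5% for endoplasmic reticulum folding and 11.5% for proteasome subunits. Other motifs were searched too and are not given here. Of the 7 lowest members with an entry, PFKFB4, SLC16A3 and P4HA2 held no match in this window. The other 4 are shown for their differing number of matches, 1 in MIR210HG, 3 in ALDOC, 2 in BNIP3 and 1 in P4HA1. Capitals mark ACGTG or its complement CACGT, which overlap where CACGTG is written, and a match is a description of letters only.
MIR210HG, chr11:568408-568707, minus strand: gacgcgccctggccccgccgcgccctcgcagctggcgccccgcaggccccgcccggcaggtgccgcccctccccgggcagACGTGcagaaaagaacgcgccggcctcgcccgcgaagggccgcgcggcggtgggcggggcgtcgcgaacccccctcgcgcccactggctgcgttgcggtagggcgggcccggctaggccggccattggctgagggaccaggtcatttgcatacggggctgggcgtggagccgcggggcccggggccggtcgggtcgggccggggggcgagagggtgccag
ALDOC, chr17:28576846-28577145, minus strand: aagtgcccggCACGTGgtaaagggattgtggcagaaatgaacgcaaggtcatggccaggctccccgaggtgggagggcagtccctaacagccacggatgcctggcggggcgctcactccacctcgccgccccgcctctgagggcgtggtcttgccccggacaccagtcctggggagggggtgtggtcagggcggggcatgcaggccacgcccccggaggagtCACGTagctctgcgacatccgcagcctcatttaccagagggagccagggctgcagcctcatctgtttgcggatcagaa
BNIP3, chr10:131981874-131982173, minus strand: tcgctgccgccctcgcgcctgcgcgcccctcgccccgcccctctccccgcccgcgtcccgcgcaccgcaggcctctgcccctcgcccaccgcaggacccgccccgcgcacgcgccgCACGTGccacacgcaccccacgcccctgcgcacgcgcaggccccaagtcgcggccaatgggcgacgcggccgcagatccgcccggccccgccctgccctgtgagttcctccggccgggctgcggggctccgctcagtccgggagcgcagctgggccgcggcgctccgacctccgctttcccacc
P4HA1, chr10:73096817-73097116, minus strand: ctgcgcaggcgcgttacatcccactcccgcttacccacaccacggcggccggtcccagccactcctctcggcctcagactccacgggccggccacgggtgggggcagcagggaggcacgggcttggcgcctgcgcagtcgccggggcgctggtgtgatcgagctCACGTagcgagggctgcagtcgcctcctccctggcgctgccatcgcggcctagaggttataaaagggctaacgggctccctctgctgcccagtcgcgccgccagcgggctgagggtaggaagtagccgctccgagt

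**Figure D2:**
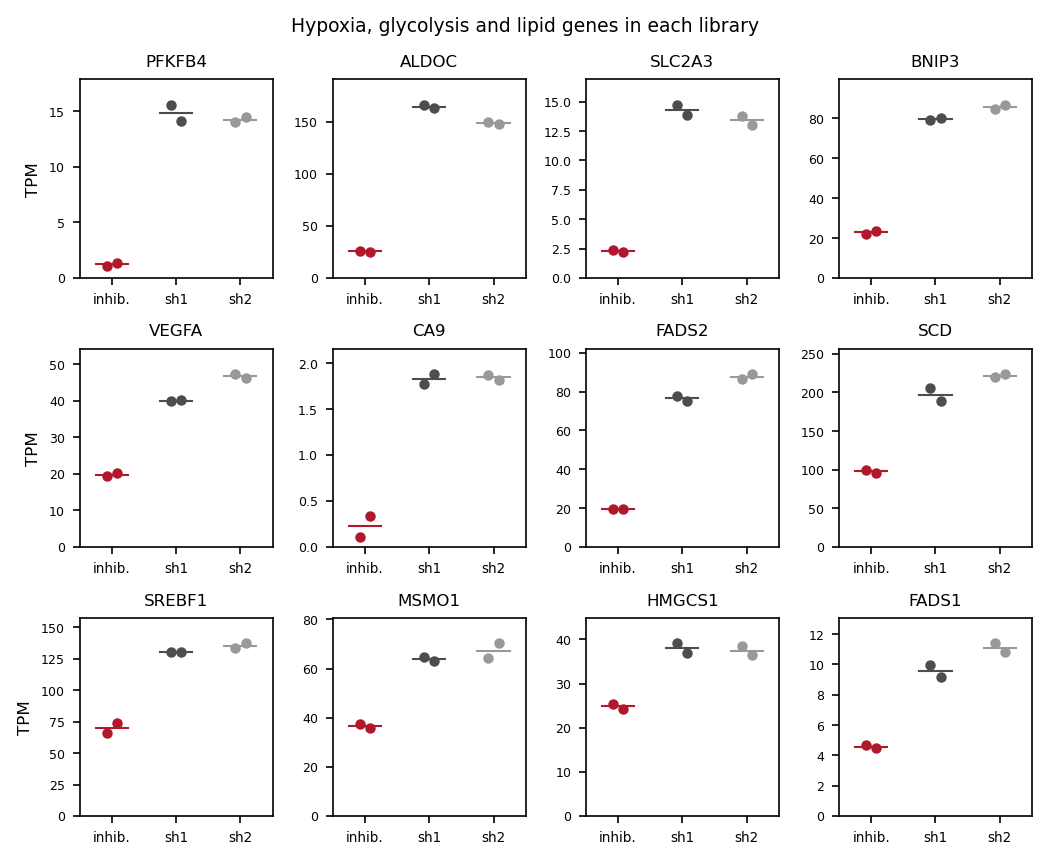
TPM of 12 hypoxia, glycolysis and lipid genes in each of the 6 libraries of the inhibitor, sh1 and sh2; points are libraries and bars are group means, and each vertical axis starts at 0. In every panel both inhibitor libraries lie below all 4 hairpin libraries, as for FADS2 at 19.33 and 19.37 TPM with the inhibitor.

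Genes of cholesterol synthesis and its control were mostly lower. Of 30 tested members 23 were lower and 1 higher, beside 19.7% and 28.3% of all tested genes, with a median of -0.47. SREBF1, which encodes the fatty acid factor SREBP-1, had 65.7 and 73.63 TPM with the inhibitor, against 130.7 and 130.7 TPM with sh1 and 133.3 and 137.3 TPM with sh2 (-0.93, SE 0.05, adjusted p = 0.00017). SREBF2, the sterol factor, differed by -0.60. Of the enzymes, MSMO1, a sterol demethylase, had 37.41 and 35.7 TPM with the inhibitor and 62.94 to 70.24 TPM with the hairpins (-0.83), and HMGCS1, which makes the HMG-CoA of the mevalonate path, differed by -0.58. ABCA1 (-0.86) and ABCG1 (-0.83), which export cholesterol and answer to the sterol sensor LXR, were lower too. INSIG2, which holds SREBP in the endoplasmic reticulum, was lower (-0.88), whereas INSIG1 had 175.5 and 169.4 TPM with the inhibitor, inside the hairpin range of 147.6 to 202.2 TPM. The 1 higher member was PMVK, a kinase of the mevalonate path (0.21), whose call was lost after quantile normalization.

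Genes of fatty acid synthesis went both ways, and the desaturases FADS2, SCD and FADS1 were among the lower ones. Of 21 tested members 10 were lower and 4 higher, beside 19.7% and 28.3% of all tested genes, with a median of -0.07. FADS2, the delta-6 desaturase, had 19.33 and 19.37 TPM with the inhibitor, against 77.78 and 75.24 TPM with sh1 and 86.31 and 88.85 TPM with sh2 (-2.03, SE 0.03, adjusted p = 5.5e-06). SCD, which makes monounsaturated fatty acids and is counted among ferroptosis suppressors, had 99.53 and 96.14 TPM with the inhibitor, against 205.6 and 188.7 TPM with sh1 and 220.1 and 223.4 TPM with sh2 (-1.09). FADS1 (-1.02), the acetate-activating ACSS2 (-0.999) and the synthase FASN (-0.49) were lower. Such leading members were picked among those without overlap. On the other side, ME1, which makes NADPH, was higher (0.48), as was ELOVL4 (0.57) at 2.333 and 2.086 TPM with the inhibitor and 1.044 to 1.3 TPM with the hairpins. ACLY, which supplies acetyl-CoA, had an interval inside the narrow window.

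The ferroptosis genes of the study's title differed in both directions. Of 30 tested suppressors 16 were higher and 5 lower (median 0.17), and of 24 tested drivers 8 were higher and 3 lower (median 0.11), beside 28.3% and 19.7% of all tested genes. GPX4 had 411.3 and 428.4 TPM with the inhibitor, against 367.5 and 379.7 TPM with sh1 and 352.4 and 348.9 TPM with sh2. The difference of 0.21 passed the test (adjusted p = 0.0022), with no overlap, and its interval of 0.14 to 0.28 lies inside the narrow window. AIFM2 (FSP1), a GPX4-independent suppressor, differed by 0.25, a call lost on leaving out inhibitor replicate 2 or sh2 replicate 1. The 5 lower members of the suppressor list were SCD, the sterol enzymes DHCR7 (-0.48) and SQLE (-0.43), the lipid-remodelling MBOAT1 (-0.41) and STAT3 (-0.28). DHCR7 does not do what the list's name says, since it consumes 7-dehydrocholesterol, a sterol known to protect lipids from peroxidation. SLC7A11, the cystine carrier of system xc-, was below the filter, at 0.7015 and 0.5978 TPM with the inhibitor and 0.3267 to 0.4938 TPM with the hairpins. Its partner SLC3A2 had 292.1 and 300.9 TPM with the inhibitor, against 218.8 and 219.7 TPM with sh1 and 229.4 and 236.5 TPM with sh2 (0.39). Of the drivers, ACSL4, which loads polyunsaturated fatty acids into membranes, had 13.86 and 12.31 TPM with the inhibitor and 11.27 to 13.56 TPM with the hairpins, with an interval inside the narrow window. LPCAT3, which works after it, was lower (-0.41), and the oxidoreductase POR was higher (0.36). CHAC1, which degrades glutathione, did not pass (0.22, adjusted p = 0.098) but did without sh2 replicate 1.

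Iron handling and antioxidant genes were higher more often, and lower less often, than all tested genes (28.3% higher and 19.7% lower). Of 26 tested iron genes 16 were higher and 2 lower (median 0.22), and of 35 genes of NRF2, glutathione and thioredoxin 21 were higher and 3 lower (median 0.17). HMOX1, which frees iron from heme and is a target of NRF2, had 91.03 and 93.54 TPM with the inhibitor, against 51.67 and 43.72 TPM with sh1 and 40.88 and 42.76 TPM with sh2 (1.03, SE 0.07, adjusted p = 0.00028). FTH1, the heavy chain of the iron store ferritin, had 1863 and 1865 TPM with the inhibitor, against 1303 and 1160 TPM with sh1 and 1273 and 1235 TPM with sh2 (0.59), and the light chain FTL differed by 0.25. SLC40A1, the iron exporter ferroportin, was one of the 2 lower genes, at 1.195 and 0.9083 TPM with the inhibitor and 2.677 to 2.941 TPM with the hairpins (-0.90), and the iron sensor FBXL5 was the other (-0.35). TFRC, the transferrin receptor, did not pass (0.13, adjusted p = 0.12) but did in the fit of all 12 libraries and without sh1 replicate 1. NCOA4, which delivers ferritin for breakdown, differed by 0.25, a call lost without inhibitor replicate 1 or sh2 replicate 1, and IREB2, an iron-regulatory RNA-binding protein, did not pass (0.11) but did without sh1 replicate 1. Of the NRF2 targets, NQO1 had 65.22 and 66.7 TPM with the inhibitor and 41.7 to 43.42 TPM with the hairpins (0.62), OSGIN1 differed by 1.10, TXNRD1 by 0.48 and the glutathione enzyme GCLC by 0.41. NFE2L2, which encodes NRF2, had an interval inside the narrow window.

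The ATF4 targets divided. Of 33 tested 15 were higher and 10 lower (median 0.11), beside 28.3% and 19.7% of all tested genes. Amino acid carriers were among the higher ones, with SLC7A5 at 340.6 and 350.4 TPM with the inhibitor and 225.8 to 249.3 TPM with the hairpins (0.54) and SLC1A5 at 0.37, and so was PPP1R15A, which restores translation (0.67). Beside DDIT4, VLDLR (-1.64), PCK2 (-0.71), STC2 (-0.65) and the stress factors ATF3 (-0.52) and DDIT3 (-0.52) were lower.

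**Figure D3:**
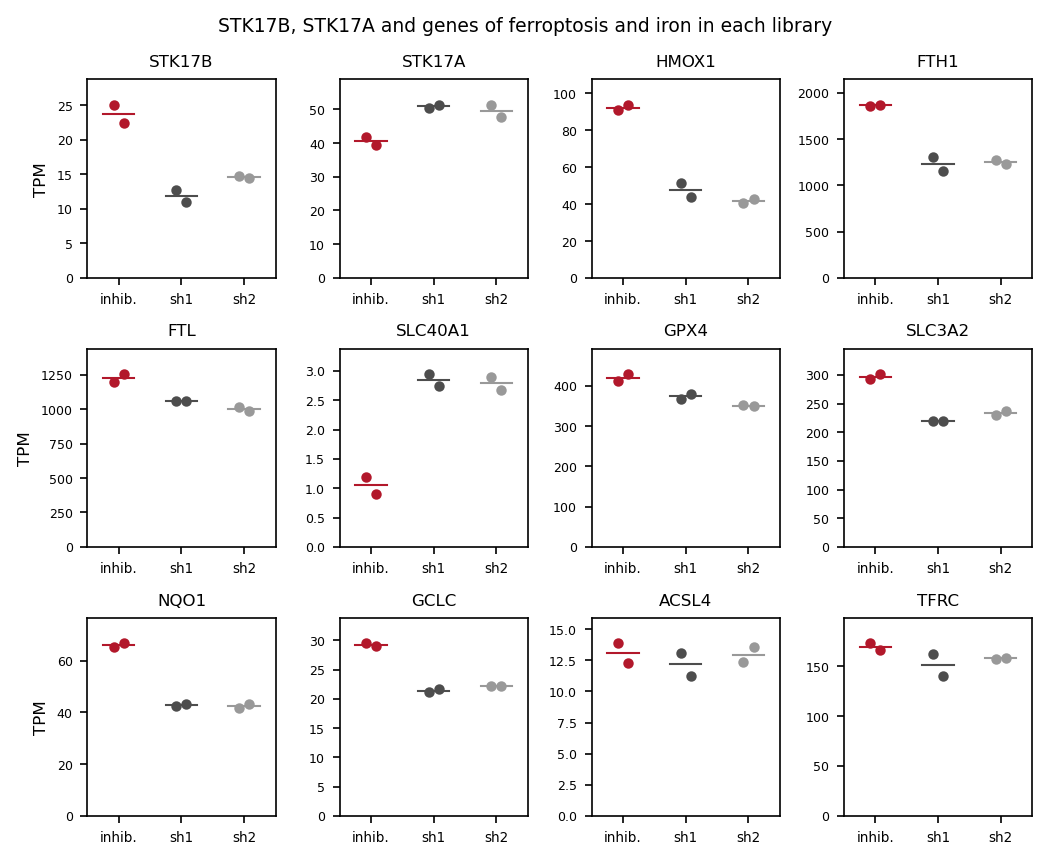
TPM of STK17B, STK17A and 10 genes of ferroptosis, iron and antioxidant defence in each of the 6 libraries of the inhibitor, sh1 and sh2; points are libraries, bars are group means, and axes start at 0. STK17B, HMOX1, FTH1, FTL, GPX4, SLC3A2, NQO1, GCLC and TFRC have both inhibitor libraries above all 4 hairpin libraries, STK17A and SLC40A1 have both below, and ACSL4 overlaps.

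Genes of growth stood higher with the inhibitor. Of 34 members of the MYC and ribosome biogenesis list 33 were higher and 1 lower, beside 28.3% and 19.7% of all tested genes, with a median of 0.46. The 1 lower member was LDHA, which the hypoxia list also holds. MYC had 495.8 and 492.5 TPM with the inhibitor, against 363.5 and 345 TPM with sh1 and 392.7 and 397.7 TPM with sh2 (0.40, SE 0.03). ODC1, the first enzyme of polyamine synthesis, had 402.7 and 396.9 TPM with the inhibitor and 223.1 to 249.2 TPM with the hairpins (0.76), and the ribosome assembly factors LYAR (0.79), RRP12 (0.69), RRP9 (0.68) and NOP16 (0.64) were higher. The ribosomal proteins themselves were not: of 40 tested 29 were lower and 0 higher, with a median of -0.17, but 32 of the 40 had intervals inside the narrow window, and after quantile normalization 19 were lower and 6 higher. RPL13A showed the largest difference, at 4671 and 4453 TPM with the inhibitor, against 6249 and 6453 TPM with sh1 and 6282 and 6088 TPM with sh2 (-0.46).

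Genes that open the cell cycle were higher with few exceptions, beside 28.3% higher and 19.7% lower of all tested genes. Of 33 genes of G1/S and DNA replication 32 were higher and 0 lower (median 0.41), and PRIM1 was the 1 that did not pass. CCNE1, the cyclin that starts S phase, had 43.61 and 44.66 TPM with the inhibitor, against 20.46 and 18.37 TPM with sh1 and 25.24 and 24.52 TPM with sh2 (0.97, SE 0.05, adjusted p = 0.00017). SLBP, which binds histone transcripts (0.60), the replication factor MCM10 (0.58) and the loader CDC6 (0.48) were also higher. Of 30 genes of G2/M and mitosis 15 were higher and 4 lower (median 0.16). MKI67, the Ki-67 antigen, differed by 0.60 and the spindle motor KIF11 by 0.45, whereas KIF20A (-0.38), the securin PTTG1 (-0.33) and the cyclin CCNB2 (-0.22) were lower. Replication-dependent histones were lower in 10 of 18 and higher in 0 (median -0.48), led by HIST1H4H at 1.165 and 1.741 TPM with the inhibitor, against 13.08 and 13.34 TPM with sh1 and 7.087 and 6.81 TPM with sh2 (-2.12). Histone transcripts of this class end without a poly(A) tail and resemble each other, so oligo-dT libraries hold a small and uncertain part of them.

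Most chaperones, proteasome subunits and tRNA synthetases were higher by small steps, beside 28.3% higher and 19.7% lower of all tested genes. Of 22 heat shock genes 14 were higher and 2 lower (median 0.24), and HSPA8, the constitutive HSP70, had 2143 and 2148 TPM with the inhibitor, against 1197 and 1168 TPM with sh1 and 1269 and 1298 TPM with sh2 (0.80, SE 0.02). HSPH1 (0.61) and HSP90AA1 (0.37) were higher, while the inducible HSPA1A was lower by a call that several alternatives lost. Of 31 proteasome subunits 22 were higher and 1 lower (median 0.17), and of 20 tRNA synthetases 14 were higher and 1 lower (median 0.19). PSMD2, a scaffold of the regulatory particle, had 263.3 and 273.8 TPM with the inhibitor and 172.1 to 186.7 TPM with the hairpins (0.58), and PSMB5, the catalytic subunit that bortezomib blocks, was the lower one (-0.28). After quantile normalization the proteasome counts were 12 higher and 3 lower, and those of the synthetases 9 and 2. Of 37 genes of endoplasmic reticulum folding 15 were higher and 5 lower (median 0.10), with SEC61A1 of the translocation channel at 0.56 and SDF2L1 at 0.49, and 22 of the 37 had intervals inside the narrow window. Of 35 nuclear genes of oxidative phosphorylation 16 were higher and 1 lower (median 0.09), a median that turned to -0.03 after quantile normalization, where 5 were higher and 8 lower.

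**Figure D4:**
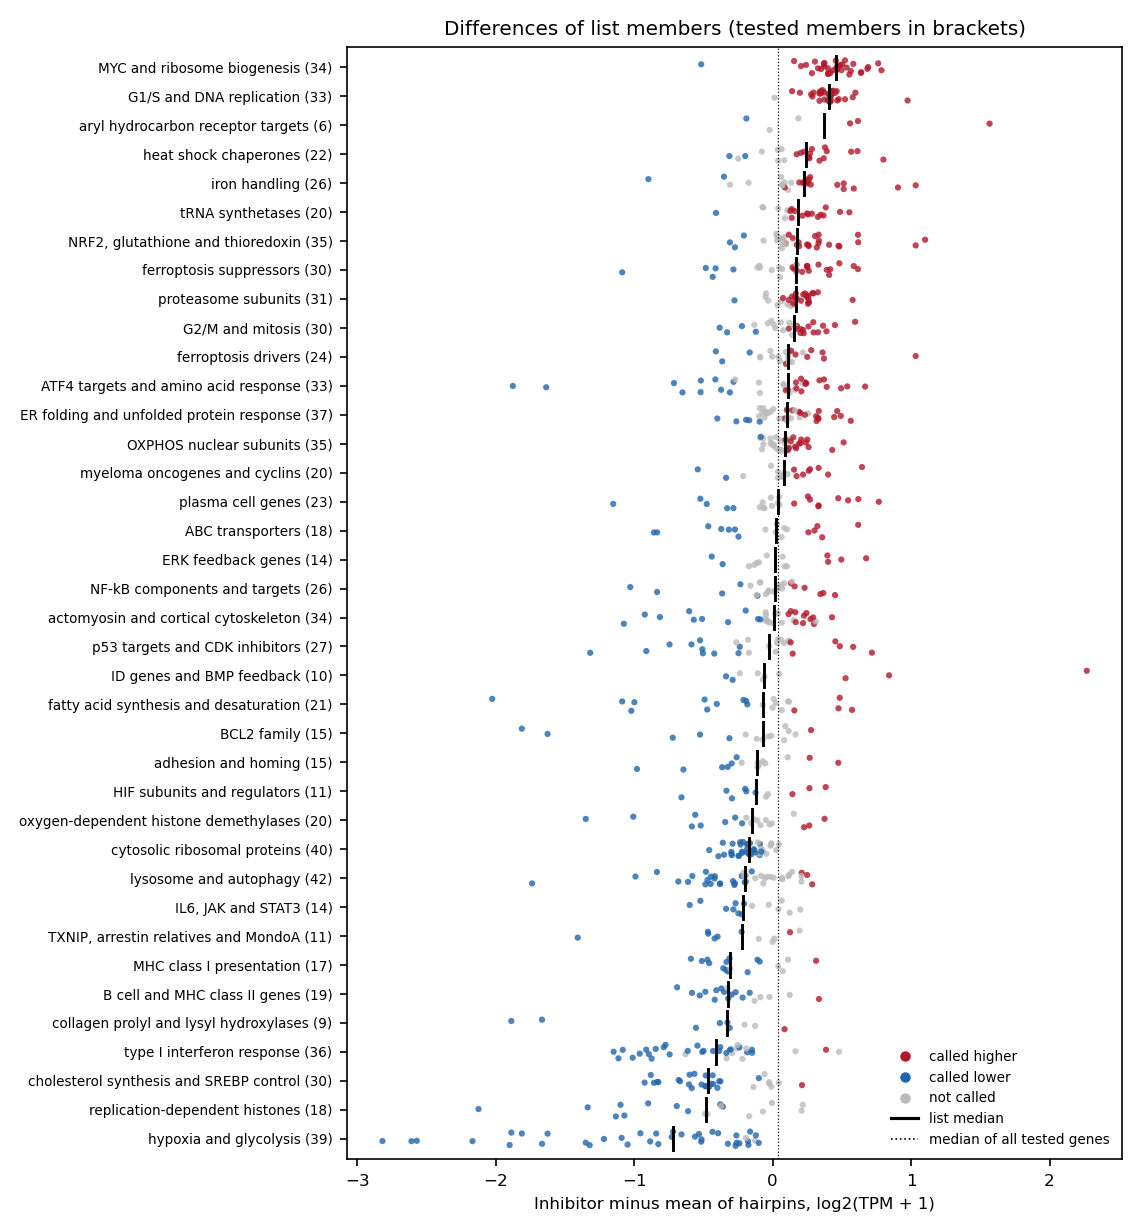
Difference (inhibitor minus the mean of the hairpins, log2(TPM + 1)) of each tested member of the lists with 5 or more tested members, ordered by list median (black bar); red and blue points were called higher and lower, grey points were not called, and the dotted line marks the median of all tested genes, 0.04. MYC and ribosome biogenesis lies at the top (median 0.46) and hypoxia and glycolysis at the bottom (-0.72).

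Plasma cell genes went both ways, as did all tested genes (28.3% higher and 19.7% lower). Of 23 tested 9 were higher and 5 lower (median 0.04, but -0.005 with median-of-ratios scaling, -0.03 after quantile normalization and -0.08 against sh2 alone). SDC1, the plasma cell antigen CD138, had 12.72 and 12.45 TPM with the inhibitor, against 25.68 and 24.09 TPM with sh1 and 33.95 and 34.53 TPM with sh2 (-1.15, SE 0.05, adjusted p = 1.0e-04). TNFRSF17, the antigen BCMA, had 255.2 and 257 TPM with the inhibitor, against 151.4 and 159.6 TPM with sh1 and 197.1 and 198.1 TPM with sh2 (0.54, SE 0.03). IRF4, the factor on which myeloma cells depend, had 88.9 and 87.84 TPM with the inhibitor and 61.47 to 77.79 TPM with the hairpins (0.33). For these 3 genes sh2 stood above sh1 in both replicates, but none passed the test of sh2 against sh1 (limma, adjusted p = 0.10 for SDC1, 0.063 for TNFRSF17 and 0.15 for IRF4). For SDC1 the inhibitor's difference was -0.93 against sh1 and -1.38 against sh2, and for TNFRSF17 0.72 against sh1 and 0.37 against sh2. XBP1, MZB1 and SLAMF7, which also mark plasma cells, had intervals inside the narrow window. The B cell markers MS4A1, PAX5 and CD22 were below the filter.

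Most genes of antigen presentation and of the interferon response were lower. Of 19 B cell and MHC class II genes 13 were lower and 1 higher (median -0.32), of 17 MHC class I genes 12 were lower and 1 higher (median -0.31), and of 36 type I interferon genes 26 were lower and 1 higher (median -0.41), beside 19.7% and 28.3% of all tested genes. HLA-DQA1 had 766.1 and 798.4 TPM with the inhibitor, against 1357 and 1338 TPM with sh1 and 1178 and 1187 TPM with sh2 (-0.69). HLA genes resemble each other, and the authors' processing could split reads between them. HLA-DMB, which loads peptides, differed by -0.58, TAPBP by -0.59, the peptide pump TAP1 by -0.47 and B2M, the shared light chain, by -0.46. MX1, an antiviral GTPase, had 12.2 and 10.16 TPM with the inhibitor, against 29.03 and 27.04 TPM with sh1 and 23.97 and 23.98 TPM with sh2 (-1.15, SE 0.08). IRF9 (-1.11) and STAT2 (-0.87), which carry the interferon signal to the nucleus, and IRF7 (-1.08) were lower. CALR, a lectin chaperone, and SPIB, an ETS factor of B cells, were the higher members of the class I and class II lists (0.31 and 0.33).

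**Figure D5:**
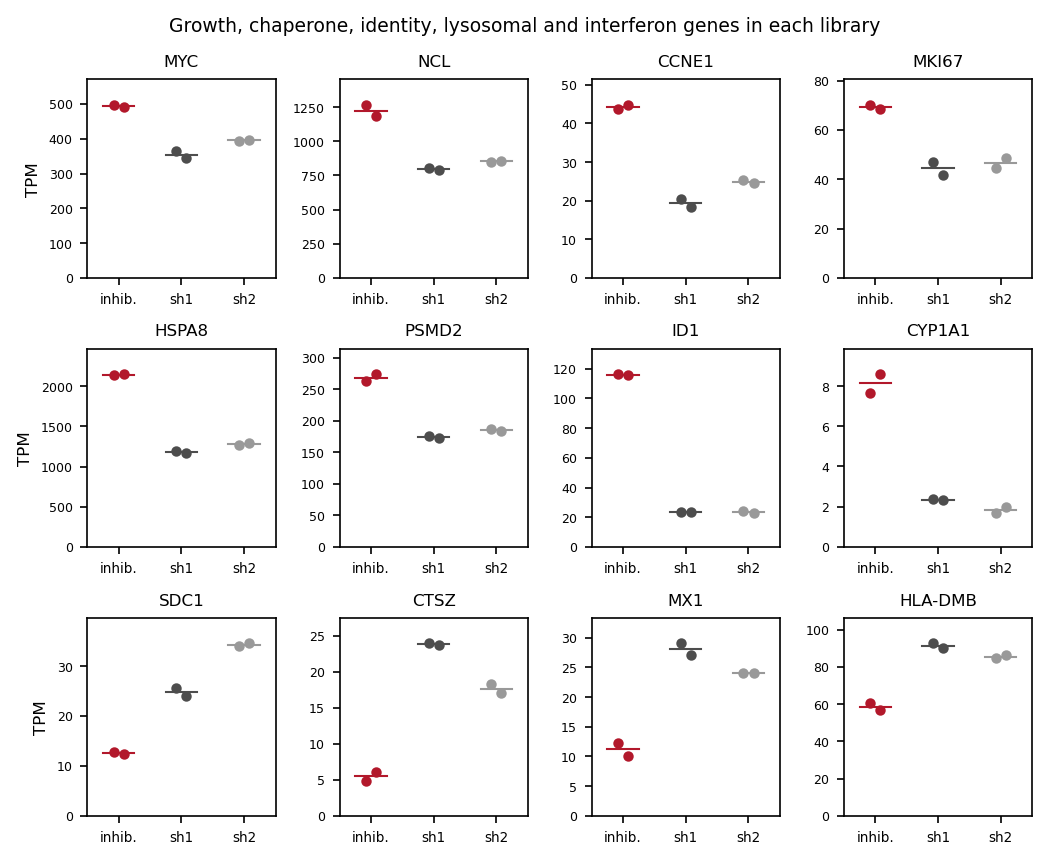
TPM of 12 genes of growth, chaperones, cell identity, lysosome and interferon in each of the 6 libraries of the inhibitor, sh1 and sh2; points are libraries, bars are group means, and axes start at 0. MYC, NCL, CCNE1, MKI67, HSPA8, PSMD2, ID1 and CYP1A1 have both inhibitor libraries above all hairpin libraries, and SDC1, CTSZ, MX1 and HLA-DMB have both below.

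Signalling genes gave smaller counts, beside 28.3% higher and 19.7% lower of all tested genes. The shares for NF-kB, ERK feedback and the ID and BMP genes lay near these. Of 20 myeloma oncogenes and cyclins 8 were higher and 2 lower (median 0.08); FGFR3, which the t(4;14) translocation brings under an immunoglobulin enhancer, had 988.5 and 1031 TPM with the inhibitor and 795.1 to 879.1 TPM with the hairpins (0.27), and the transcription factor MAF was lower (-0.54). Of 14 genes of IL6, JAK and STAT3 8 were lower and 0 higher (median -0.21), among them SOCS3 (-0.60), IL6R (-0.52) and PIM1 (-0.34). Of 26 NF-kB genes 6 were higher and 5 lower (median 0.01, but -0.03 with median-of-ratios scaling), with NFKBIA higher (0.45) and TNFSF10, the death ligand TRAIL, lower (-1.03). Of 14 ERK feedback genes 4 were higher and 2 lower (median 0.01, but -0.02 with median-of-ratios scaling), and of 10 ID and BMP genes 3 were higher and 2 lower (median -0.06). Of 11 genes of TXNIP, its arrestin relatives and MondoA 6 were lower and 1 higher (median -0.22), and TXNIP itself, which restrains glucose uptake, had 19.21 and 17.43 TPM with the inhibitor, against 54.64 and 50.07 TPM with sh1 and 48.03 and 48.44 TPM with sh2 (-1.41, SE 0.06).

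Lysosome genes leaned to the lower side, beside 19.7% lower and 28.3% higher of all tested genes. The lists of death, adhesion, transporter and actomyosin genes had medians nearer to the 0.04 of all tested genes. Of 42 lysosome and autophagy genes 23 were lower and 3 higher (median -0.20). CTSZ, a lysosomal protease, had 4.823 and 6.127 TPM with the inhibitor, against 23.93 and 23.69 TPM with sh1 and 18.27 and 16.98 TPM with sh2 (-1.74, SE 0.09), and WIPI1 (-0.99), CTSL (-0.84) and GABARAPL1 (-0.68) were lower. SQSTM1, the autophagy receptor p62, was among the 3 higher (0.25). Of 27 p53 targets and CDK inhibitors 10 were lower and 6 higher (median -0.03): TP53INP1 differed by -1.32 and CDKN1C by -0.91, MDM2 by 0.72 and AEN by 0.58. Of 15 BCL2 family genes 5 were lower and 1 higher (median -0.07). Of the 5, 2 were lower by 2-fold or more, and the lowest was BNIP3 (-1.81), which the hypoxia list also holds. The killer BCL2L11 (-0.72) and the survival gene BCL2L1 (-0.31) were lower too, whereas MCL1 and BCL2 had intervals inside the narrow window. Of 15 adhesion genes 6 were lower and 2 higher (median -0.11), with the chemokine receptor CCR1 at -0.98 and the integrin ITGB7 at 0.47. Of 18 ABC transporters 7 were lower and 5 higher (median 0.03), and of 34 actomyosin genes 10 were lower and 11 higher (median 0.01). With median-of-ratios scaling these medians were -0.02 for the transporters and -0.03 for actomyosin.

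The hairpins differed less between themselves than from the inhibitor. The test of sh2 against sh1 called 8 genes (0.0628%), 7 higher and 1 lower with sh2. By the same limma test 1899 of the 12731 genes had an unadjusted p below 0.05. That is a larger share than the 0.05 foreseen if no gene differed between the hairpins. With 2 libraries on each side, an uncalled gene is not shown to be equal between the hairpins. Of the 8, 6 were small nuclear RNAs, a long noncoding RNA or genes with no class in the annotation, and the other 2, HES6 and TXNDC5, were named after their values were seen. HES6, a helix-loop-helix factor, had 203.8 and 208.4 TPM with the inhibitor, against 150 and 155.7 TPM with sh1 and 220.2 and 207.8 TPM with sh2, so that the inhibitor stood above sh1 and beside sh2. TXNDC5, a disulphide isomerase of plasma cells, had 997.6 and 990.4 TPM with the inhibitor, against 715.9 and 696.8 TPM with sh1 and 883 and 885.5 TPM with sh2, above both hairpins by unequal amounts.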

How the data were processed

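RNA of KMS11 cells was sequenced after poly(A) selection, random priming and stranded DNBSEQ library preparation, per the labels' protocols. Among tools, with no role given, are RSEM 1.3.1, HISAT, DESeq2 1.4.5 and Bowtie2 2.3.4.3, and the genome is GRCh38.p13, per the submitters' processing notes. The values used are the TPM deposited by the authors, 1 per gene and library, so depth is unknown and no count model was fitted. Values were taken as log2(TPM + 1), and the 6 libraries entered a limma 3.58.1 fit (R 4.3.3) with 3 group means, eBayes with trend, and Benjamini-Hochberg adjustment over 12731 genes. The difference is the inhibitor minus the equally weighted mean of sh1 and sh2, with 3 residual degrees of freedom. An exact permutation of 2 against 4 libraries could not reach 0.05 and was not used. Lists (43, holding 1000 genes, 38 found under older symbols) and members were chosen with earlier results of these data known. They are described by counts and medians, with no set test. Named are the 2 kinases, a panel of ferroptosis and iron genes, the largest differences without overlap, and the leading members of each list; further list members were named after their values were seen. Positions are from GENCODE on GRCh38 (11296 genes matched). Python 3.11.15, pandas 2.3.3 and matplotlib 3.10.9 made tables and figures. Alternatives were other pseudocounts, filters, scalings and variance settings, a fit of all 12 libraries, a replicate block, each hairpin alone, a 2-fold rule and leaving out each library. Some list members are counted but not reported by name here.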

Additional observations from a re-analysis of the deposited data

Results flagged for a closer look

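For 2 protein-coding genes the inhibitor's difference depended on the hairpin it was set against, by the test of sh2 against sh1 (limma, Benjamini-Hochberg over all tested genes). For HES6 the inhibitor differed by 0.43 from sh1 and by -0.05 from sh2, and the gap between the hairpins was 0.48 (adjusted p = 0.041, higher in 2 of 2 sh2 libraries). For TXNDC5 the inhibitor differed by 0.49 from sh1 and by 0.17 from sh2, and the gap was 0.32 (adjusted p = 0.041, higher in 2 of 2 sh2 libraries).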

How the results depend on the processing

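The counts of 3600 higher and 2514 lower genes stayed within 1.5 times under the other pseudocounts, filters, scalings, variance settings, the fit of all 12 libraries and each hairpin alone. They moved further with the 2-fold rule (33 higher, 120 lower) and without inhibitor replicate 1. Leaving out 1 library each gave 2308 to 3584 higher and 1671 to 2434 lower genes, the lowest of both without inhibitor replicate 1 (2308 and 1671). Rescaling by the median of ratios gave 3113 higher and 2949 lower genes, quantile normalization 3199 and 2752. Of 283 named genes 279 were called, and 223 of these kept the call under every setting other than the 2-fold rule. Most of these genes were named because they were called, so the counts do not speak for all tested genes. Of all tested genes 48.02% were called. A reversed direction was found for P4HB after quantile normalization (-0.0044) and for HES6 against sh2 alone (-0.0535), and the cause was not tested. With the replicate number as a block, 3470 genes were higher and 2416 lower. Libraries of the same number showed no shared deviation: their deviations correlated at 0.0356 (inhibitor and sh1), -0.0105 (inhibitor and sh2) and -0.0551 (sh1 and sh2). Whether they were paired by design cannot be told from these values. Where leaving out a library leaves a group with 1, that library is assumed to vary like the others. Low genes, such as SLC7A11 and CA9, are limited by a depth that TPM does not show.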
